A study of Mus musculus with 8 samples.

Results

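The report follows 6 genes that hold blood cells in the bone marrow or let them leave it, out of 19669 genes measured in single cells of erythroblastic islands from mice. They were chosen by name as the chemokine axis of marrow retention and release: the ligands Cxcl12 and Cxcl2, the chemokine receptors Cxcr4, Cxcr2 and Ccr1, and the lipid receptor S1pr1. All 6 were present in the table, with 1476 UMIs for S1pr1, 2356 for Cxcl12, 7182 for Cxcr2, 10324 for Ccr1, 12401 for Cxcr4 and 135859 for Cxcl2. A UMI is a molecular tag that marks 1 captured RNA molecule.

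Stromal cells of the marrow secrete Cxcl12, and its receptor Cxcr4 keeps neutrophils, B cell precursors and stem cells close to those cells. Maturing neutrophils gain Cxcr2, the receptor of Cxcl1, Cxcl2 and related ligands, which draws them toward blood and inflamed tissue. S1pr1 senses sphingosine-1-phosphate, a lipid that is plentiful in blood, and guides lymphocytes out of tissues. Ccr1 binds inflammatory CC chemokines such as Ccl3 and Ccl6 and serves myeloid cells.

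Erythroblastic islands are clusters of red cell precursors around a macrophage. They were isolated on albumin gradients from male mice of the lupus-prone strain Sle1.Yaa, set free with EDTA and mild mechanical force, and sequenced on the 10x Genomics V3.1 platform. Per the labels, 2 marrow and 2 spleen samples came from anemic mice carrying a TLR8 transgene, which the series describes as human, and 3 marrow samples and 1 spleen sample came from Sle1.Yaa controls labelled non-anemic. The labels list no treatment, and they state neither the promoter that drives the transgene nor the age of the mice. The deposited table names cells by barcode alone, so no cell could be placed in a group. Neither the effect of the transgene nor the difference between spleen and marrow could be measured, and no test was made.

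The table held 24942 cells with 248384567 UMIs and a median of 7554 UMIs per cell. Barcode order restarted so that 8 sorted runs could be told apart, with 447 to 6787 cells and 6195876 to 48442321 UMIs each. These runs served as unnamed libraries, a choice made after the table was seen, and their order was not used to place a run in a group. In all, 287 barcodes occurred in more than 1 run. Clustering without the 6 genes gave 31 clusters, of which 23 were named in 15 classes by marker genes. The preparations held 4949 early and 5219 late erythroid-like cells and 448 macrophage-like cells, beside 5101 cells in 6 neutrophil clusters. Levels are counts scaled to 1000000 UMIs of the same cells (CPM). Intervals are exact 95% Poisson intervals and, like binomial intervals of shares, cover counting error only. Pooled values weight a run by its cells, and the spread between runs can come from any difference between libraries, genotype and tissue included.

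The positions of the genes are from GENCODE M21 on GRCm38. Cxcr4 (ENSMUSG00000045382) lies at chr1:128588199-128592293 on the minus strand and Cxcr2 (ENSMUSG00000026180) at chr1:74153989-74161246 on the plus strand. Cxcl12 (ENSMUSG00000061353) lies at chr6:117168535-117181367 and Cxcl2 (ENSMUSG00000058427) at chr5:90903871-90905938, both on the plus strand. S1pr1 (ENSMUSG00000045092) lies at chr3:115710433-115715072 and Ccr1 (ENSMUSG00000025804) at chr9:123962124-123968692, both on the minus strand.

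RefSeq promoter sequences for GRCm38.p6 matched 5 of the 6 genes, and the 250 bases before each start were searched on both strands for 6 motifs. The motifs were NF-kB (GGG, any 2 bases, then TTTCC), NRF1 (GCGC, then AT, then GCGC), PU.1 (GAGGAAGT), C/EBP (TTGCNNAA), AP-1 (TGANTCA) and the hypoxia element (ACGTG), and no match overlapped another. The stretches shown run from 130 to 31 bases before the RefSeq start and are the 2 that held a match, with the matching bases in capitals. Cxcl2 is printed from chr5:90903769-90903868 on the plus strand and Cxcr4 from chr1:128592330-128592429 on the minus strand.
Cxcl2: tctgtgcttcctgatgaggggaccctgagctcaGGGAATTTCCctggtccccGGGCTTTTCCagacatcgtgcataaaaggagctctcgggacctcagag
Cxcr4: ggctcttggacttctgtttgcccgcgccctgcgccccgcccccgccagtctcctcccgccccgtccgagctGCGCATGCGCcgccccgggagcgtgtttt
The Cxcl2 stretch holds 2 matches to the NF-kB motif, at 97 to 88 and at 78 to 69 bases before the start. Of 32851 promoters, 464 (1.41%) held at least 1 such match and 8 (0.0244%) held 2 or more. The Cxcr4 stretch holds 1 match to the NRF1 motif at 59 to 50 bases before the start, as did 257 (0.782%) of the promoters. The other 4 motifs had no match in these windows, and they occurred in 2.44% (PU.1), 9.56% (C/EBP), 6.75% (AP-1) and 16.6% (hypoxia element) of the promoters. A match describes letters and is neither a site nor a cause.

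Neutrophils were the cells in which Cxcr4 and Cxcr2 could be followed through maturation. The 6 neutrophil clusters were put in order by their summed UMIs of mature markers, none of which is a member. The order ran from granulocyte-monocyte progenitor-like cells (cluster 15, led by Ctsg and Mpo) and a Fcnb-Elane cluster (12) through immature neutrophil-like cells, led by Chil3 (cluster 5) or by Ly6g and Ltf (cluster 19). It ended with a Mmp8-Retnlg cluster (7) and mature neutrophil-like cells (cluster 14, with Il1b and Stfa2l1). Clusters 12 and 7 stayed unnamed because 2 stages had markers among their leading genes.

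Cxcr2, the receptor for release, stood at 4.39 CPM in cluster 15, 12.04 in cluster 12, 25.98 in cluster 5, 81.7 in cluster 19, 315 in cluster 7 and 737 in cluster 14. Each step was upward in all 4 or 5 runs compared, except that from cluster 5 to cluster 19, which was upward in 3 of 4 runs. In the mature neutrophil-like cells Cxcr2 was 566 in run 1, 759 in run 3, 811 in run 4, 654 in run 6 and 649 in run 7. The lowest of these lay far above the highest value of 6.17 among the progenitor-like cells of 5 runs, so the ends of the series did not overlap.

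Cxcr4, the receptor for retention, was also higher in CPM with maturation, over a smaller range. It stood at 19.2 in cluster 15, 39.1 in cluster 12, 72.8 in cluster 5, 78.3 in cluster 19, 116 in cluster 7 and 201 in cluster 14. The mature neutrophil-like cells had 141 in run 1, 221 in run 3, 230 in run 4, 89.6 in run 6 and 159 in run 7. In cluster 5 the same runs gave 31.9, 88.3, 81.2, 30.6 and 34.6, so runs 3 and 4 were the 2 highest at both stages. The steps were upward in the same numbers of runs as for Cxcr2. Within each run the mature cells were above cluster 5, but across runs the ranges almost met, at 88.3 and 89.6.

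Per cell, Cxcr4 did not follow its level in CPM. The pooled mean was 0.469 UMIs per cell in cluster 15, 0.882 in cluster 12, 1.32 in cluster 5, 0.928 in cluster 19, 1.04 in cluster 7 and 0.913 in cluster 14. Runs differed in the order of clusters 14 and 5. Cluster 14 was lower in run 3 (1.07 against 1.80), run 4 (1.06 against 1.49) and run 6 (0.141 against 0.257). It was higher in run 1 (0.843 against 0.823) and run 7 (0.735 against 0.591). Cxcr2 per cell went from 0.107 in cluster 15 to 0.469 in cluster 5, 2.81 in cluster 7 and 3.34 in cluster 14. Median total UMIs went the other way, from 24870.5 in cluster 15 to 17415 in cluster 5 and 4423 in cluster 14. Cxcr4 was thus a larger share of a smaller RNA pool in mature cells, whereas Cxcr2 was higher on both scales. Less RNA per cell and a lower capture of it cannot be told apart here.

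The ratio of Cxcr2 UMIs to Cxcr4 UMIs needs no total. UMIs are not scaled by gene length, so the ratio was compared between clusters and not read as which receptor is more abundant. It was 0.228 in cluster 15, 0.308 in cluster 12, 0.357 in cluster 5, 1.04 in cluster 19, 2.71 in cluster 7 and 3.66 in cluster 14. Among the mature cells it was 4.02 in run 1, 3.43 in run 3, 3.53 in run 4, 7.30 in run 6 and 4.08 in run 7. Progenitor-like cells ranged from 0.143 to 0.407 over 5 runs, with no overlap. Run 6, the highest, also had the shallowest mature cells, with a median of 1431 UMIs against 4338 to 6158.5 in the other runs. The balance of UMIs lay further toward Cxcr2 in mature cells of every run.

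**Figure D1:**
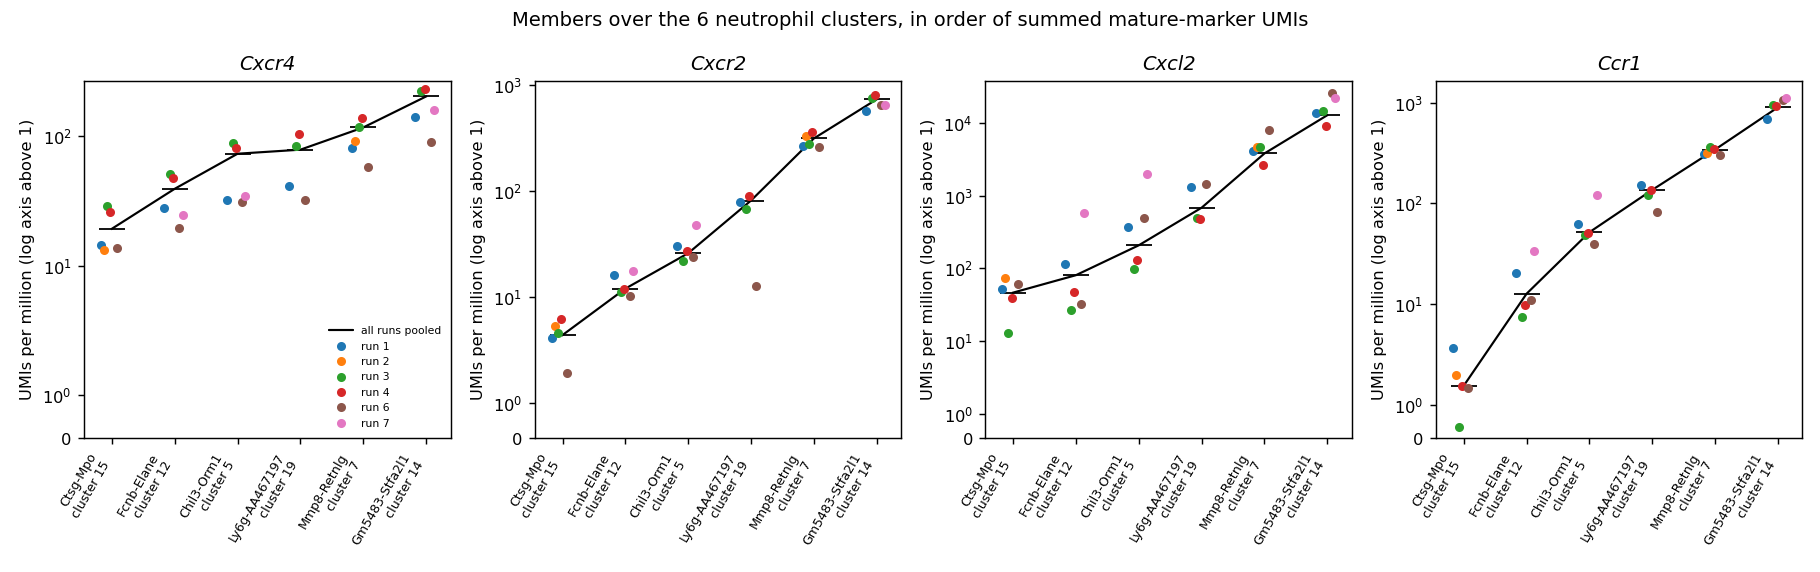
CPM (log axis above 1) of Cxcr4, Cxcr2, Cxcl2 and Ccr1 in the 6 neutrophil clusters, ordered from progenitor-like (left) to mature neutrophil-like (right). Points are runs with at least 20 cells and the line joins the pooled levels. Pooled Cxcr4 goes from 19.2 to 201 and pooled Cxcr2 from 4.39 to 737.

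Single cells showed the same shift once each was thinned to 2000 UMIs. Among progenitor-like cells 3.32% had a UMI of Cxcr4 alone, 0.474% of Cxcr2 alone and 0 of 633 had both. In cluster 5 Cxcr4 alone was found in 12.4% of 1282 cells (interval 10.7 to 14.3%), Cxcr2 alone in 5.30% and both in 0.780%. In mature neutrophil-like cells Cxcr4 alone was found in 6.19% of 565 cells (4.35 to 8.51%), Cxcr2 alone in 48.8% (44.7 to 53.1%) and both in 24.6% (21.1 to 28.4%). Among cells with either receptor, most progenitor-like cells had Cxcr4 alone, whereas most mature cells had Cxcr2, with or without Cxcr4.

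Without thinning, both receptors were found in 3.77% of progenitor-like, 21.3% of cluster 5 and 44.6% of mature neutrophil-like cells. Thinning kept 633 of 636 progenitor-like, 1282 of 1294 cluster 5 and 565 of 698 mature cells, since the others were too shallow. As background, Cxcr2 was found in 2 of 4139 thinned early erythroid-like cells, 0.0483%, and in 0.242% of all such cells, whose median depth was 11189 UMIs. The share in progenitor-like cells, 3 of 633, rests on very few molecules.

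**Figure D2:**
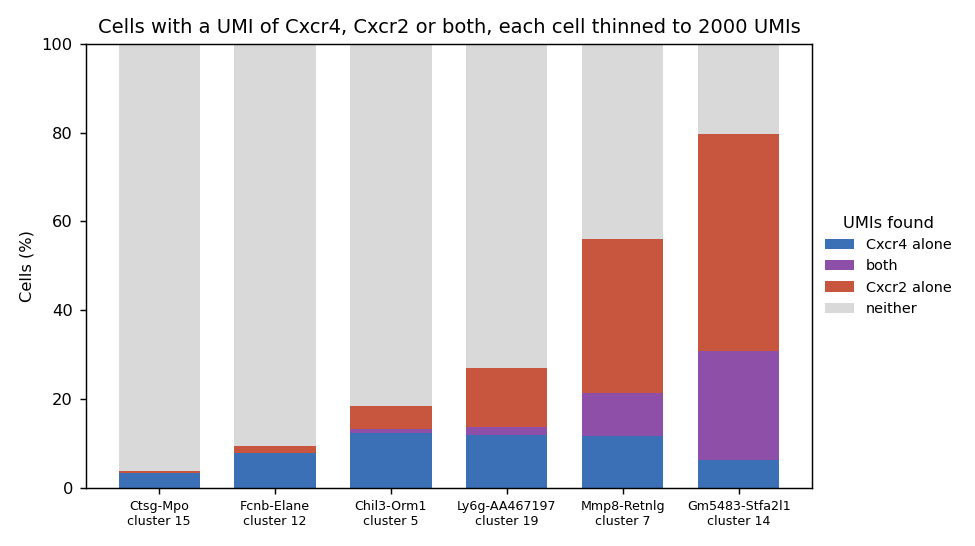
Share of cells (%) in each neutrophil cluster with a UMI of Cxcr4 alone, both receptors, Cxcr2 alone or neither, after thinning each cell to 2000 UMIs. Clusters are ordered as by mature markers. Cells with both go from 0 to 24.6%, and cells with Cxcr2 alone from 0.474% to 48.8%.

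Mature neutrophil-like cells (698) were then set against the 1888 immature neutrophil-like cells of clusters 5 and 19. The log2 ratio was taken with 10 CPM added to both levels and centred on the median of 4416 genes at 20 or more in either class. A gene was called when it was at least 2-fold apart with the same sign in all 5 runs that had 20 cells of both. By this rule 18.5% of the genes were called higher and 18.9% lower, and 4 of the 6 members were called higher. Cxcl12 and S1pr1 were under 20 CPM in both classes and had no call.

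Cxcl2 ranked 10 of the 4416 genes from the highest, Cxcr2 ranked 32, Ccr1 ranked 52 and Cxcr4 ranked 579. Cxcr2 was 737 CPM in mature against 38.9 in immature cells, a centred log2 ratio of 4.003 (3.36 to 4.32 over runs, SD 0.48, n = 5). Cxcr4 was 201 against 74.1, a log2 ratio of 1.40 (1.29 to 2.06, SD 0.35, n = 5). At cluster resolution 2, where 1143 cells bore the mature name, the Cxcr4 ratio was 0.85 and the call was lost, and the Cxcr2 ratio was 2.12. The Cxcr2 ratio was 2.47 with stages gated per cell, and its call remained. With the 17 doublet calls kept, the new clustering named 1136 cells mature and 2600 immature. The Cxcr2 ratio was then 2.77 and still called, for classes redrawn well beyond those 17 cells. Pooled over runs, the mean Cxcr4 count per cell was lower in mature (0.913) than in immature cells (1.19), the reverse of its order in CPM. That order held in runs 3, 4 and 6, while in runs 1 and 7 the mature cells had the higher mean.

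Ccr1, a receptor for inflammatory CC chemokines, had a course like that of Cxcr2 over the clusters. It stood at 1.55 CPM in cluster 15, 12.7 in cluster 12, 51.8 in cluster 5, 136 in cluster 19, 343 in cluster 7 and 902 in cluster 14. All steps were upward in every run compared. The mature cells had 697 in run 1, 957 in run 3, 924 in run 4, 1066 in run 6 and 1127 in run 7, against 94.8, 62.7, 71.7, 43.1 and 124 in immature cells of the same runs. No run overlapped between the classes, and the centred log2 ratio was 3.56 (2.84 to 4.34, SD 0.56, n = 5). It was 1.83 at resolution 2 and 2.18 with stages gated per cell, and was called in both.

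Cxcl2, a ligand of Cxcr2 that recruits neutrophils, was itself the member with the most UMIs in neutrophils. Its level was 46.6 in cluster 15, 80.8 in cluster 12, 208 in cluster 5, 683 in cluster 19, 3793 in cluster 7 and 12704 in cluster 14. The first step was upward in 3 of 4 runs and the later ones in every run compared. Mature cells had 13483 in run 1, 14507 in run 3, 8971 in run 4, 25586 in run 6 and 21681 in run 7. The lowest mature value lay above the highest immature value of 1813, and the centred log2 ratio was 5.35 (3.78 to 6.39, SD 1.03, n = 5). It was 2.94 at resolution 2 and 3.03 with stages gated per cell, and was called in both.

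Genes known to respond to tissue dissociation were also higher in the later neutrophil clusters. The 20 such genes summed to 5481 CPM in cluster 15, 5311 in cluster 12, 5938 in cluster 5, 8976 in cluster 19, 14646 in cluster 7 and 27538 in cluster 14. The 18 that reached the minimum level had a median log2 ratio of 1.77 against 0 for all genes. Of these 13 were called higher in mature cells and 0 lower, beside 18.5% and 18.9% of all genes. Among them were Nfkbia, an inhibitor and target of NF-kB, at 3254 against 376, and Junb at 4115 against 356. Their part in the Cxcl2 level was not tested. In mature cells the dissociation genes summed to 24425 in run 1, 25477 in run 3, 30090 in run 4, 26436 in run 6 and 30894 in run 7. Run 4 had the lowest Cxcl2 of these runs, at 8971, so the order of runs differed. Across other classes the sum and Cxcl2 did not always go together. Basophil and mast cell-like cells had a sum of 29626 with Cxcl2 at 292, and classical monocyte-like cells 21100 with 2170.

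The wider pathway was read from 7 lists of 61 genes that were also kept out of the clustering. In the same comparison 28 of the 61 reached the minimum level, with a median log2 ratio of 0.80 against 0 for all genes. Of these 12 were called higher and 0 lower, beside 18.5% and 18.9% of all genes. In the retention adhesion list, 4 of 8 measured genes were called higher. Among them were Selplg, the ligand of selectins (753 against 49.6), Cd44, a hyaluronan receptor (651 against 188), and Itgal, an integrin subunit (242 against 72.9). Itga4 and Itgb1, the subunits of the integrin VLA-4, were not called, at 36.1 against 21.4 and 27.8 against 41.9.

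Both measured genes of the list for G-CSF and release proteases were called higher, beside 18.5% of all genes. Csf3r, the receptor of the cytokine G-CSF, was 1091 CPM in mature and 68.5 in immature cells. Mmp9, a gelatinase stored in granules, was 2356 against 329. All 3 measured genes of the list for CC receptors and Ccr1 ligands were called higher, and these 3 were ligands: Ccl6 (1878 against 7.99), Ccl3 (583 against 46.6) and Ccl4 (266 against 8.12). Over all classes Ccl6 was highest in the mature neutrophil-like cells, as was its receptor Ccr1, whereas Ccl3 and Ccl4 were highest in basophil and mast cell-like cells, at 5411 and 4701.

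Of 8 measured genes in the list of Cxcr4 partners and desensitisation, 1 was called higher, the G protein regulator Rgs2 at 303 against 105. The receptor kinase Grk2 was 323 against 188 and Grk6 was 63.9 against 133, both below the 2-fold rule. In the list of CXC ligands, Cxcl3 was called higher at 67.7 against 1.45. None of the 6 other CXC receptors reached 20 CPM in these classes, and Cxcr1, 1 of these 6, was highest in mature neutrophil-like cells at 14.9. Of the S1P list 1 of 5 measured genes was called higher, Sgpl1, the lyase that degrades the lipid, at 50.6 against 14.04. With 18.5% of all genes called higher, neither 1 of 5 here nor 1 of 8 Cxcr4 partners sets its list apart.

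Most Cxcl12 came from 1 small cluster. The 10 leading genes of cluster 29 were Col1a1, Col1a2, Sparc, Bglap, Igfbp5, Spp1, Ibsp, Bglap2, Fabp4 and Bgn. The cluster had 61 cells, of which 38 came from run 6, and held 1800 of the 2356 Cxcl12 UMIs. Its level was 4959 CPM (4733 to 5194), against 2.24 in all other cells. The cluster was left unnamed because endothelial markers were the most frequent among its 50 leading genes, while the 10 leading genes held 3 stromal markers and 0 endothelial ones. In the comparison with all other cells 20.1% of 7270 genes were called higher and 19.7% lower, from 1 run with 20 such cells, and Cxcl12 (log2 ratio 8.12) and S1pr1 (2.82) were among the higher. Cxcr4 and Cxcr2 were among the lower, with 4 and 0 UMIs in the cluster, and Cxcl2 and Ccr1 were not called. The median gene was shifted by 0.54 in this comparison, and the ratios are relative to it.

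Within this niche cluster Cxcl12 was higher in cells with stromal genes alone than in cells with endothelial genes alone. A cell was taken as stromal or endothelial when at least 3 genes of that list were detected. The 20 cells with stromal genes alone had 8399 CPM (7882 to 8941), with a median of 36 UMIs per cell and a highest cell of 231. The 20 cells with endothelial genes alone had 321 (190 to 508), and 5 of them had a Cxcl12 UMI. The 18 cells that passed both gates stood at 4210 (3922 to 4514), with at least 5 UMIs in each. The remaining 3 cells passed neither gate and had 4622 (1995 to 9106), from a median of 521 total UMIs.

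The depth of these cells differed. Median totals were 4973 UMIs for the stromal, 1366 for the endothelial and 9921.5 for the doubly gated cells, and 16 of the 18 doubly gated cells came from run 6. Whether those 18 droplets held 1 cell or 2 was not tested. Summed stromal markers were 89280 CPM in the stromal, 785 in the endothelial and 5033 in the doubly gated cells. By run the whole cluster had 2103 in run 1, 528 in run 2, 10334 in run 3, 2946 in run 4 and 5118 in run 6, from 2, 3, 8, 10 and 38 cells. These values spread widely, and only run 6 passed the minimum of 20 cells.

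Outside the cluster, 16 cells passed the stromal gate and stood at 937 (812 to 1076), and 8 of them were megakaryocyte-like. They held 200 of the 556 Cxcl12 UMIs outside the cluster, so most of those UMIs lay in cells that passed no stromal gate. By contrast 123 cells elsewhere passed the endothelial gate, of which 64 were stem and multipotent progenitor-like, 55 megakaryocyte-like and 4 early erythroid-like. They held 7 Cxcl12 UMIs, 3.19 CPM (1.28 to 6.58). The endothelial gate thus took mostly cells of other classes, which share genes of that list. Over all 143 cells with endothelial genes alone Cxcl12 was 11.1, and 6.16 without run 6. That value depends on the gate, at 3.29 with at least 2 endothelial genes and 450 with at least 5. Over all 54 cells with stromal genes it was 3806 (3640 to 3978), against 1438 with at least 2 stromal genes and 5463 with at least 5.

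The next classes in order were megakaryocyte-like cells at 32.9 CPM (27.4 to 39.1), macrophage-like cells at 20.3 (15.4 to 26.3) and plasmacytoid dendritic cell-like cells at 11.2 (8.37 to 14.7). In each, single cells held a large share of the UMIs. Of 128 UMIs in 538 megakaryocyte-like cells, 6 cells held 102, and all 6 passed the stromal gate. Of 57 UMIs in macrophage-like cells 1 cell held 27, and of 52 in plasmacytoid cells 1 cell held 24, both with 3 stromal genes. A UMI was found in 25 of 448 macrophage-like cells (5.58%), and in 3.88% after thinning. Classical monocyte-like cells had 2.38 CPM, and by the rule of fold and sign the macrophage-like cells were called higher, as were 13.7% of 6277 genes. That call rests on run 3 (26.3 against 2.81) and run 6 (68.3 against 9.31), since in run 5 both classes were at 0 and their sign came from centring alone.

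Erythroid-like cells held low levels. Early ones had 1.08 CPM, with a UMI in 52 of 4949 cells, of which 1 held 15 of the 67 UMIs, and 40 of those 52 were in run 6, the run with most niche cells. Late ones had 1.64 CPM, and 3 cells, of which 1 passed the stromal gate, held 36 of their 69 UMIs. After thinning, 0.217% of early erythroid-like cells and 78.6% of niche cluster cells had a UMI, against 1.05% and 68.9% unthinned, at median depths of 11189 and 4778. In thinning, 19 of the 61 niche cluster cells and 810 erythroid cells were left out as too shallow. The erythroid share serves as the background.

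**Figure D3:**
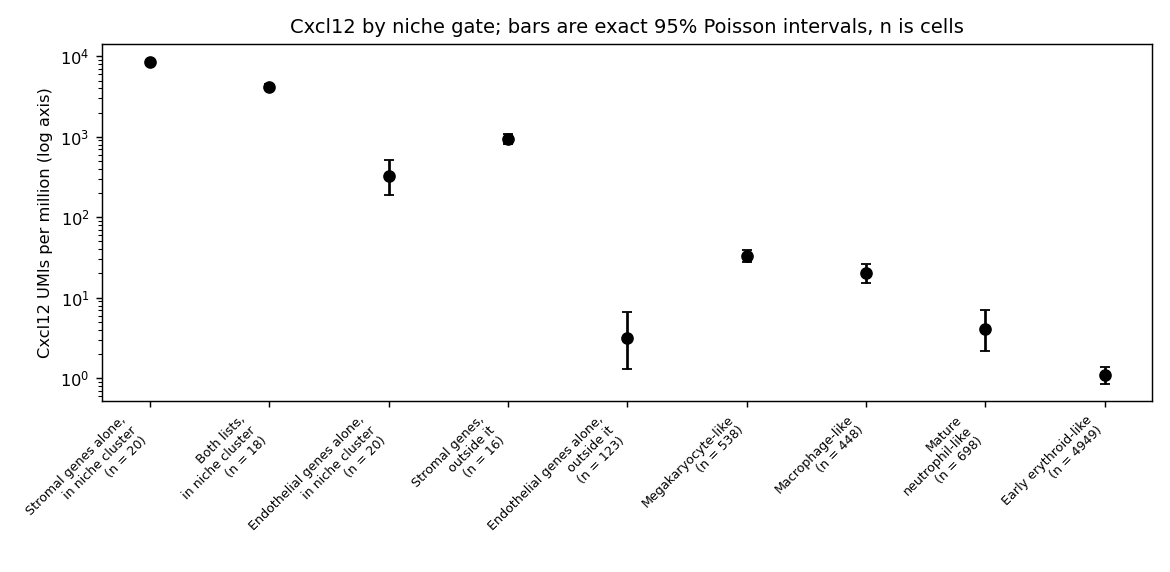
Cxcl12 CPM (log axis) in cells gated on stromal or endothelial genes inside and outside the niche cluster and in 4 other classes, with exact 95% Poisson intervals and the number of cells. Stromal cells of the niche cluster stand at 8399, endothelial ones at 321 and early erythroid-like cells at 1.08.

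S1pr1, the egress receptor of lymphocytes, had a different set of cells. Its level was highest in the niche cluster, at 152 CPM (114 to 197), where the intervals of the gates overlapped: stromal cells had 103 (53.1 to 179), endothelial cells 196 (98.0 to 351) and doubly gated cells 170 (116 to 240). B cell-like cells followed at 122 (114 to 131), T cell-like cells at 89.4 (79.8 to 99.8) and NK cell-like cells at 28.0 (21.5 to 35.7). The order of the niche cluster and B cell-like cells is not firm, since their intervals overlapped. Of the 55 UMIs in the niche cluster 41 came from run 6. Without run 6 the niche cluster had 121.5 and B cell-like cells 132.6. With the highest 6% of doublet scores left out and clusters redrawn, they had 107 and 130. Over 7 runs of B cell-like cells the lowest value was 43.8, the median 117 and the highest 168. Over 8 runs of T cell-like cells they were 32.9, 56.2 and 329.

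The runs of these 2 classes overlapped, and within runs B cell-like cells were higher in some and T cell-like cells in others (153 against 88.8 in run 3, 168 against 329 in run 8). Run 8 alone held the highest T cell value, and without run 8 the T cell-like level was 54.3. Stem and multipotent progenitor-like cells had 16.4 (13.7 to 19.4) and plasma cell-like cells 6.01. Neutrophils had next to none: progenitor-like cells held 0 S1pr1 UMIs among 15504656, for which the limit that a count of 0 allows, taken as 3 UMIs, is 0.193 CPM, and mature neutrophil-like cells had 1.27. After thinning, 23.6% of B cell-like, 12.7% of T cell-like and 0.0725% of early erythroid-like cells had a UMI, against 37.0%, 23.8% and 0.283% unthinned, at median depths of 4402, 4893.5 and 11189.

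Genes that make, move or oppose the S1P signal lay in several classes, some of which also held S1pr1. Mfsd2b, the exporter of S1P from red cells and platelets, was highest in megakaryocyte-like cells at 277 and in early erythroid-like cells at 77.7. Sphk1, a kinase that makes S1P, was highest in early erythroid-like cells at 46.2. Spns2, the exporter of endothelial cells, was highest in stem and multipotent progenitor-like cells at 88.8, with 52.4 in the niche cluster. The niche cluster led for S1pr3 at 130 and for Plpp3, a phosphatase that breaks down S1P outside cells, at 1064. Cd69, which pulls S1pr1 off the cell surface, was 763 in B cell-like cells, and S1pr4 was 63.1 in the Mmp8-Retnlg cluster.

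Across all classes Cxcr4 was broad. It was highest in B cell-like cells at 269 CPM (256 to 282), followed among named classes by mature neutrophil-like cells at 201 (186 to 218) and basophil and mast cell-like cells at 184 (161 to 209). Over 7 runs of B cell-like cells it ranged from 59.97 through a median of 165 to 472, and the ranges of these classes over runs overlapped. Within runs, however, B cell-like cells were above mature neutrophil-like cells in runs 1, 3, 4 and 6 (209 against 141, 472 against 221, 412 against 230 and 111 against 89.6). They were above basophil and mast cell-like cells (304, 222 and 52.7) in runs 3, 4 and 6. NK cell-like cells had 107, T cell-like cells 93.1, classical monocyte-like cells 82.7 and plasmacytoid dendritic cell-like cells 67.4. Stem and multipotent progenitor-like cells, in which Cxcr4 is known for retention, had 10.9 with 12.6% of cells positive, or 2.69% after thinning.

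The 2 B cell-like clusters were compared with each other, since Cxcr4 is known to hold B cell precursors. Cluster 21, led by precursor genes such as Vpreb1, had 356 CPM of Cxcr4 against 193 in cluster 17, led by Ms4a1. The centred log2 ratio was 0.48 pooled, which no single run reached, and from -1.27 to 0.46 within 5 runs, with 2 above 0. S1pr1 was 109 in the Vpreb1 cluster against 134, a centred ratio of -0.65 that was below 0 in all 5 runs, although in CPM run 1 had the other order, with 136 against 114. Ratios are relative to a median gene shifted by 0.37, and on plain totals they were 0.85 for Cxcr4 and -0.28 for S1pr1. Neither passed the 2-fold rule, by which 7.25% of 6319 genes were called higher and 8.86% lower.

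The Fcgr4-Cd300e cluster, myeloid cells with non-classical monocyte and macrophage markers, varied widely between runs. Its Cxcr4 level was 83.8 pooled, with 239 in run 1, 321 in run 3, 118 in run 4, 7.497 in run 5, 226 in run 6 and 6.83 in run 7. Runs 5 and 7 lay far below the other 4. Its Cxcl2 level was 65.6 in run 5 and 3411 in run 6, and these were its lowest and highest runs. In macrophage-like cells Cxcl2 was 1388 in run 3, 14.2 in run 5, 1390 in run 6 and 692 in run 7, while the dissociation genes summed to 29330, 7652, 26889 and 15599 in the same runs. Their part in the difference between runs was not tested.

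Outside the neutrophils, Cxcl2 was highest in classical monocyte-like cells at 2170 (1117 to 3068 over 6 runs), then in macrophage-like cells at 960, the Fcgr4-Cd300e cluster at 899.7 and the niche cluster at 559. Macrophage-like cells were called lower than classical monocyte-like cells for Cxcl2 and for Ccr1 (14.6 against 70.6) in 3 runs, where 9.48% of genes were called lower. For Cxcl2 the centred log2 ratio was -1.10 pooled and ranged from -5.66 to -0.23 over runs. Its levels were 1388 against 1760 in run 3, 14.2 against 1276 in run 5 and 1390 against 2842 in run 6. Cxcr4 was 30.3 against 82.7 and was not called, being above 0 in 1 of 3 runs. Early erythroid-like cells had 6.86 and late ones 6.67, which gives the background for Cxcl2. Ccr1 was 152 in basophil and mast cell-like cells, above the 71.4 of immature neutrophil-like cells. Cxcr2 outside the neutrophil clusters was 50.4 in basophil and mast cell-like cells, with 0 in 1 of their 3 runs, and at most 9.01 elsewhere. In the niche cluster 0 Cxcr2 UMIs were found among 362945, for which the same limit of 3 UMIs is 8.27 CPM.

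**Figure D4:**
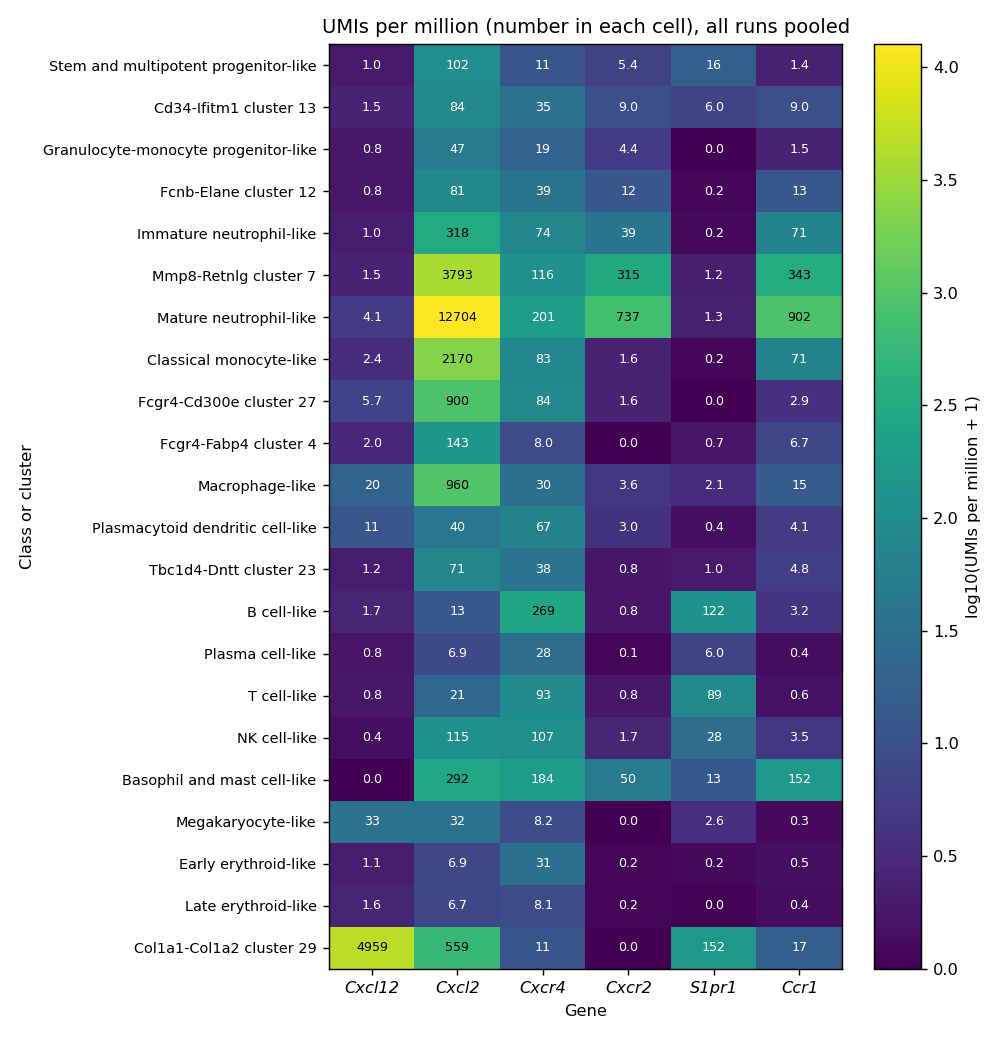
Level of each gene (CPM, printed in each field and coloured as log10 of the level plus 1) in the 22 classes or clusters with at least 50 cells, all runs pooled. Cxcl12 peaks at 4959 in the Col1a1-Col1a2 cluster, Cxcl2, Cxcr2 and Ccr1 in mature neutrophil-like cells, Cxcr4 in B cell-like cells and S1pr1 in the niche cluster and lymphocytes.

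In the erythroid cells, the main cells of the islands, Cxcr4 was the only member to reach 20 CPM in the early or the late class. Its level was 30.8 CPM in early and 8.11 in late erythroid-like cells, with 0.384 and 0.0655 UMIs per cell. On plain totals the log2 ratio was -1.17, but centred on the median gene it was 0.31, with 5 of 7 runs above 0, since the median gene itself shifted by -1.48. The direction thus depends on the scaling and no call was made. In that comparison 10.8% of 4342 genes were called higher and 8.41% lower.

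By cluster, in order of the globin share of UMIs, Cxcr4 in CPM was highest at intermediate globin. It was 13.3 in cluster 20 (2.23% globin), 5.43 in the shallow cluster 9 (2.97%, median 1471 UMIs), 30.8 in cluster 3 (16.8%) and 43.3 in cluster 0 (44.5%). It was 25.0 in cluster 8 (54.9%), 6.74 in cluster 11 (67.7%), 10.3 in cluster 2 (68.6%) and 0.870 in cluster 1 (90.5%). With globin left out of the total, cluster 0 was still highest at 78.0, against 13.6 in cluster 20 and 9.18 in cluster 1. Over 8 runs cluster 0 ranged from 28.1 to 68.8, and over 7 runs cluster 1 ranged from 0.376 to 1.88, so these ends did not overlap. Per cell, clusters 3 and 0 were close when pooled, at 0.517 and 0.527 UMIs. Cluster 3 had more per cell than cluster 0 in runs 2, 3, 4, 5, 6 and 7 (1.16 against 0.676 in run 3). It had less in run 1 (0.667 against 0.781). The peak in cluster 0 was thus seen in CPM and not clearly per cell.

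The S1P exporter Mfsd2b had a like course over the same clusters, at 57.2, 18.3, 81.3, 92.4, 59.4, 44.8, 44.95 and 1.68 CPM. Cluster 0 was again the highest and cluster 1 the lowest. Ackr1, a receptor that binds chemokines without signalling and is carried by red cells as the Duffy antigen, was 64.9 in early erythroid-like cells. Its level in cluster 2, at 90.4, was close to the 88.6 of cluster 0, so it stayed high at a globin share where Cxcr4 was already low.

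**Figure D5:**
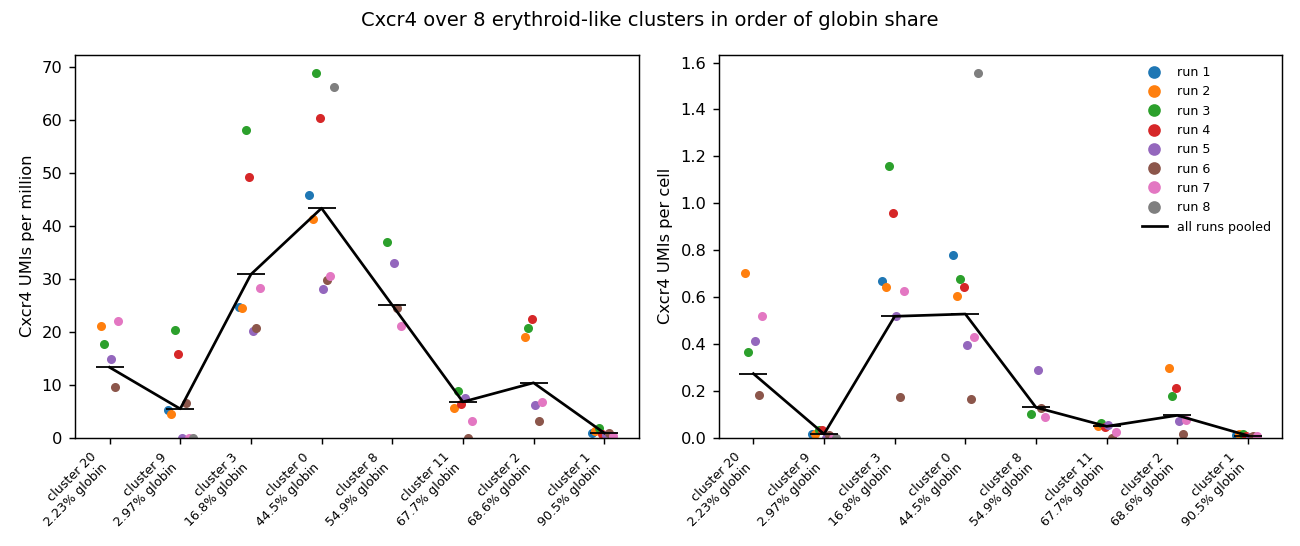
Cxcr4 as CPM (left) and UMIs per cell (right) in 8 erythroid-like clusters, ordered by the globin share of their UMIs. Points are runs with at least 20 cells and the line joins the pooled values. The pooled level peaks at 43.3 CPM at 44.5% globin and is 0.870 at 90.5%.

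For each member the genes with the most similar pattern were found by Pearson r of log2(CPM + 10) over 30 clusters, among 6945 genes. The clusters share libraries and depth, so r is a description. Cxcr2 was most like Dhrs9 (0.94), Retnlg (0.94), a mature neutrophil marker, Amer2 (0.94), Adam8 (0.93) and Il1f9 (0.93). Ccr1 was most like Osm (0.95), Tarm1 (0.94), the complement receptor C5ar1 (0.93), Cxcr2 (0.93) and Adam8 (0.93). Cxcl2 was most like the lectin receptor Clec4e (0.93), Fgd4 (0.93), Selenon (0.92), Tlr13 (0.92) and Atp11a (0.92).

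The other 3 members peaked elsewhere. Cxcl12 was most like Igfbp5 (0.99), which belongs to the stromal gate, Sdc2 (0.99), Bgn (0.98), Ibsp (0.98) and Wwtr1 (0.98), and all 5 were highest in the niche cluster. Since Cxcl12 was 4959 CPM in that cluster and 2.24 in all other cells, these r rest largely on that cluster. S1pr1 was most like Trib2 (0.91), Gem (0.86), Cers4 (0.85), which makes ceramides, Foxo1 (0.84) and Bcl9l (0.83). The closest genes to Cxcr4 included Mirt1 (0.85), Akna (0.83), Prr14 (0.81) and Ccm2 (0.81), whose highest classes were mature neutrophil-like, B cell-like or T cell-like.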

How the data were processed

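Single-cell RNA of erythroblastic island cells from 8 labelled samples was analysed. A single genes-by-cells table of UMI counts, not normalized, was deposited by the authors, and Cell Ranger 5.0.0, Seurat 3.1.5 and mm10 are named per the submitters' processing notes. How the authors filtered cells was not stated. The planned edgeR comparison of groups could not be made, since cells carry no library name. Levels therefore pool all cells, and the barcode runs give only the spread.

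All cells met a minimum of 200 genes and a limit of 20% for mitochondrial RNA. Scrublet within runs called 17 doublets (0.0682%), and these were left out. So low a share cannot be relied on to have removed the doublets, and why it was low was not tested. Counts were scaled to 10000 and log-transformed. The 2000 most variable genes, without members or pathway genes, were reduced to 30 components, and a graph of 15 neighbours was cut by Leiden at resolution 1 (scanpy 1.11.5, leidenalg 0.10.2, Python 3.11.15, seed 0). A cluster took the class with most markers among its 50 leading genes of at least 50 CPM. It stayed unnamed with under 3 markers detected, under 50 cells, or when another class had as many among the 10 leading genes. UMIs were summed per class as CPM.

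Named genes were the 6 members, 5 genes most like each in pattern, up to 4 genes of a pathway list in a class described, and markers. Of these, 2 genes are not reported here. Some pathway genes were named beyond these 4, after their values were seen. Members and lists were chosen with earlier results of these data known. The ratios were tested on simulated data. Alternatives changed resolution, cell filter, doublets, clustering genes, shared barcodes, runs, stage gate, added CPM, centring, minimum level, globin and niche gate. The highest 6% of doublet scores were left out as an alternative added after the data were seen.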

Additional observations from a re-analysis of the deposited data

How the results depend on the processing

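Of 202 recomputed values 169 stayed within the spread between runs, the counting interval or 1.5 times a count, and 33 moved. None of the log2 ratios changed sign, while levels and counts of genes cannot do so. At resolution 0.5 no class was named mature neutrophil-like or immature neutrophil-like apart, so no stage ratio could be had, and under the stricter cell filter no niche cluster formed.

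At resolution 2 the log2 ratios were 0.85 for Cxcr4, 2.12 for Cxcr2, 2.94 for Cxcl2 and 1.83 for Ccr1, with 359 genes called higher and 208 lower, against 818 and 835. With stages from the gate per cell they were 1.04, 2.47, 3.03 and 2.18, with 422 higher and 415 lower. With the 17 doublet calls kept they were 1.04, 2.77, 3.69 and 2.47, with 499 genes called lower. The new clustering then named 1136 cells mature and 2600 immature, against 698 and 1888, so the classes were redrawn as well. The stricter filter gave 2.93 for Cxcr2, 3.77 for Cxcl2 and 2.59 for Ccr1. The Cxcr4 call was lost at resolution 2 alone, and the other 3 members kept their call in every alternative run.

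Cxcl12 in cells of the stromal gate was 1438 with at least 2 markers and 5463 with at least 5, and 3334 to 4025 leaving out 1 run. In cells of the endothelial gate alone it was 3.29 with at least 2 markers, 450 with at least 5, and 6.16 to 13.1 leaving out 1 run. In the niche cluster it was 4359 to 5309 leaving out 1 run. Without the highest 6% of doublet scores a cluster of 128 cells bore the niche markers, with 3677 for Cxcl12 and 107 for S1pr1. The cause of these moves was not tested.

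No paired analysis was possible because cells carry no sample name, so the replicate numbers of the labelled groups could not be used. Classes were compared within runs instead. The number of niche cells, 61, and of runs with at least 20 of them, 1, limits the precision of Cxcl12.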
